A study of Mus musculus with 8 samples.

Results

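The genes described here are 37 members of the PI3K, AKT and mTOR pathway, listed by name, of 19937 genes measured in regulatory T cells (Tregs) of mouse bone marrow chimeras. A gene was represented by the probe set with 1 gene symbol that had the highest mean over all 8 arrays, and 36 of the 37 had such a probe set. Rps6kb1, an S6 kinase, had none and was not analysed here. By their textbook role the members were divided into 20 activators, of which 19 were measured, and 17 inhibitors, all measured.

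Tregs of IIKO-CD3KO chimeras (IIKO) were compared with those of WT-CD3KO chimeras (WT), with 4 arrays each. In both, lethally irradiated recipients lacking CD3ε, and so unable to make their own T cells, received donor marrow, either from IIKO or from wild-type mice. At 28 days the CD4+ TCRβ+ CD25+ cells of peripheral lymph nodes and spleen were isolated with magnetic beads and cell sorting. All mice are labelled C57BL/6 and were 6 to 8 weeks old, and 100 ng of total RNA was labelled for each Affymetrix array. The labels state that Tregs of IIKO chimeras lack contact of the TCR with MHC class II in the periphery, and those of WT chimeras do not. Sample titles call the arrays biological replicates. The labels do not spell out the disrupted gene or say how many mice a replicate pools. The p-values therefore cover the spread between replicates as labelled, which may be partly technical. Radioresistant cells of the host, such as thymic stroma, survive irradiation in such chimeras and are of the same host genotype in both groups. All levels below are log2 values after robust multi-array averaging (RMA) by the authors, and every difference is IIKO minus WT on that scale.

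Phosphoinositide 3-kinase (PI3K) turns the membrane lipid PIP2 into PIP3, which recruits PDK1 and AKT. AKT restrains the TSC complex, which lets the GTPase RHEB switch on the kinase mTOR, while the RAG GTPases bring mTOR complex 1 to the lysosome when amino acids are plentiful. In T cells the TCR, CD28 and the IL-2 receptor feed this pathway. Tregs are known for keeping PI3K and AKT activity low, and mouse Tregs are also known to need mTOR complex 1 for their suppressive function. The pathway is run mostly by lipids and phosphorylation, which an RNA array does not measure.

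The sorted cells carried high levels of Treg transcripts, as the labels say. The mean of 8 Treg markers lay between 11.691 and 11.776 on the IIKO arrays and between 11.678 and 11.723 on the WT arrays. Of these markers Cd3g, a chain of the TCR complex, was at 12.50 ± 0.02 in IIKO and 12.56 ± 0.04 in WT, and Ctla4, an inhibitory receptor, at 12.36 ± 0.04 in IIKO and 12.24 ± 0.06 in WT (SD, n = 4 arrays each). Of the 8 differences 6 were positive and 2 negative. For 3 of the 8 (37.5%) the groups did not overlap, all higher in IIKO. Over all genes 2.83% were apart and higher and 7.69% apart and lower. Marker lists of other cells had lower and overlapping means. The 7 measured B cell markers lay between 6.129 and 6.172 in IIKO and 6.053 and 6.298 in WT. The 10 myeloid and dendritic cell markers lay between 6.106 and 6.589 in IIKO and 6.136 and 6.376 in WT, highest on IIKO array 3. The 7 NK and CD8 T cell markers lay between 6.469 and 6.651 in IIKO and 6.473 and 6.689 in WT. The 3 measured erythroid markers lay between 6.818 and 7.252 in IIKO and 7.166 and 7.375 in WT, and the 5 thymocyte markers between 5.872 and 6.121 in IIKO and 6.106 and 6.176 in WT. None of these marker genes passed limma's test over all genes. In bulk RNA, fewer cells of a type and less RNA per cell cannot be told apart.

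No member of the pathway differed between IIKO and WT Tregs past the test. Of the 36 measured members, 0 had a limma p, adjusted by Benjamini-Hochberg over all genes, under 0.05, against 0.286% of all genes. The lowest adjusted p among members was 0.244, for Rictor. At an unadjusted limma p under 0.05, 2 members were higher in IIKO, Rictor and Inpp4b, and 0 were lower. That is 5.56% of the members higher, against 5.27% of all genes higher and 12.0% of all genes lower. All measured members except Deptor lay above the median gene level of 7.10, and among the 9968 genes above it 8.95% were higher and 7.42% lower at that unadjusted threshold. The members' counts were therefore near or under the background in either direction.

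The fit also gave an interval for the size of each difference on the RMA scale, each gene taken by itself. The members' differences ran from -0.11 for Sesn1 to 0.25 for Inpp4b, with standard errors of 0.05 to 0.12. For each of the 36 members the 95% confidence interval of the difference stayed within 0.5 log2, a factor of 1.41, on both sides of 0, and the bound farthest from 0 was 0.48, for Inpp4b. Over all genes 18766 of 19937 intervals stayed within the same limits. The median difference was 0.03 over the members, against -0.04 over all genes and 0.01 over the genes above the median level. Of the members 58.3% had a positive difference, against 37.1% of all genes and 53.7% of the genes above the median level.

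**Figure D1:**
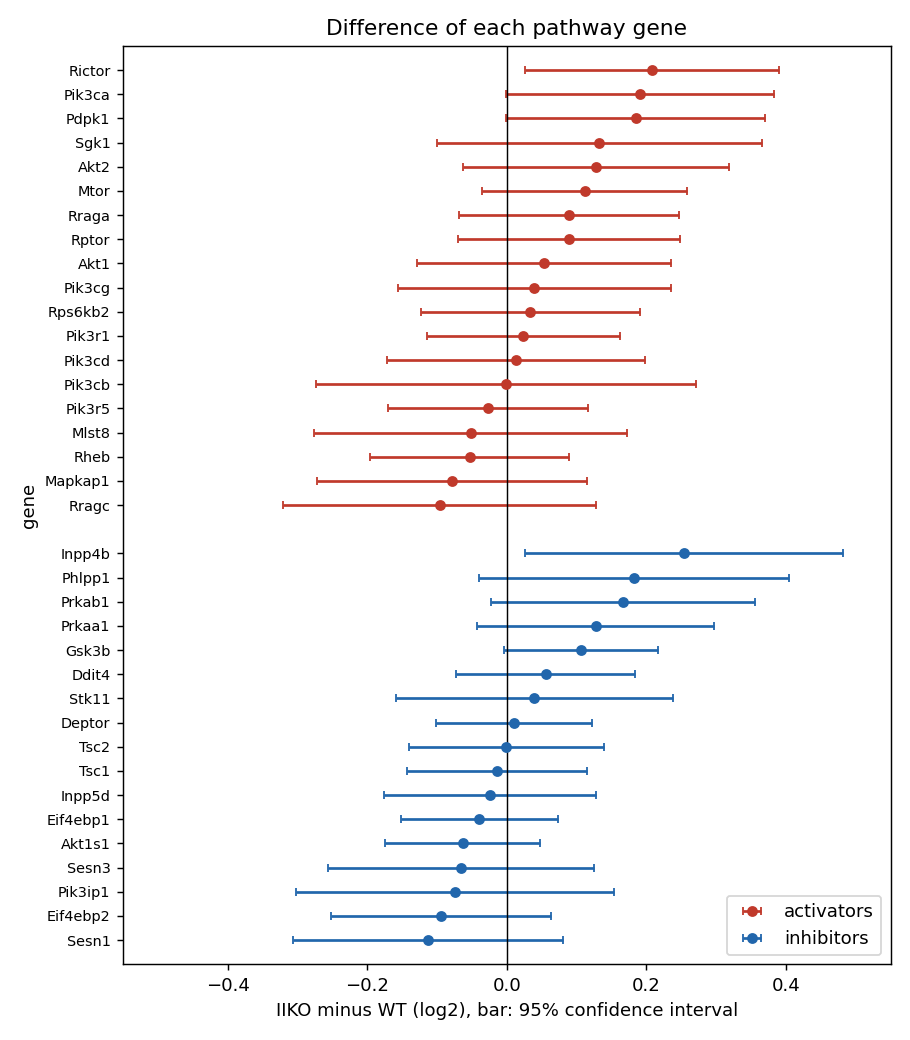
Difference of each of the 36 measured pathway genes, IIKO minus WT on the log2 scale (horizontal axis), with the 95% confidence interval of limma's fit as bars. Activators (red) are above and inhibitors (blue) below; all intervals lie between -0.5 and 0.5, and those of Rictor and Inpp4b lie above 0.

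Activators and inhibitors did not part from each other by much. The 19 activators had a median difference of 0.04, with 13 positive and 6 negative, and the 17 inhibitors a median of -0.00052, with 8 positive and 9 negative. The mean level of the activators was 8.843, 8.917, 8.878 and 8.867 on IIKO arrays 1 to 4, against 8.835, 8.840, 8.834 and 8.788 on WT arrays 1 to 4. That of the inhibitors was 8.842, 8.875, 8.854 and 8.880 in IIKO, against 8.843, 8.780, 8.855 and 8.867 in WT. For the activators every IIKO array lay above every WT array, though IIKO array 1, at 8.843, lay just above WT array 2, at 8.840. The mean of all genes above the median level was also higher in IIKO, at 8.793 against 8.776 in WT. That background was not computed for each array. The activator mean was not recomputed after a further quantile normalization. For the inhibitors the groups overlapped. The mean of activators minus that of inhibitors ran from -0.013 to 0.041 in IIKO and from -0.079 to 0.060 in WT, so the IIKO values lay inside the range of WT.

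**Figure D2:**
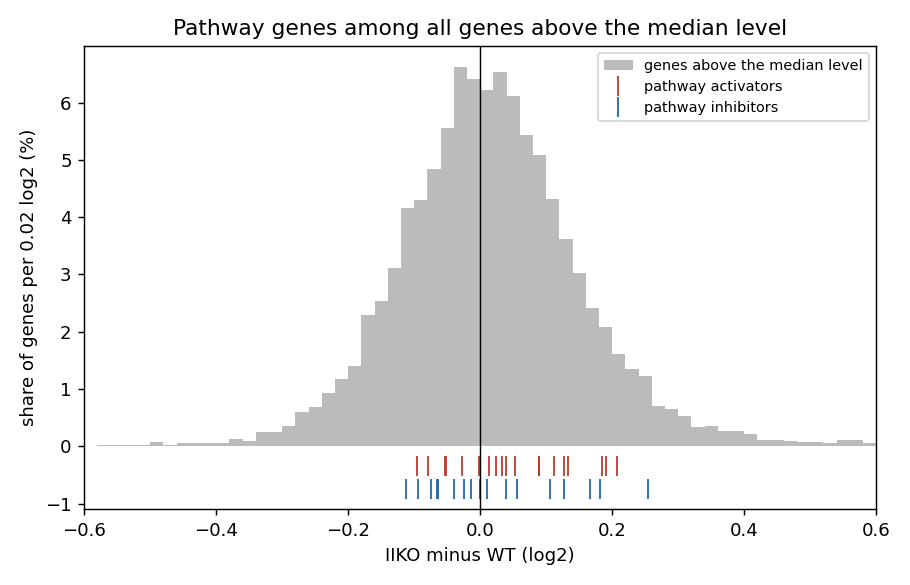
Differences between the groups (IIKO minus WT, log2, horizontal axis) for the 9968 genes above the median level, as the percentage of genes per 0.02 log2 (grey). Ticks mark the 19 pathway activators (red) and the 17 inhibitors (blue), which include Deptor although it lies below the median level; all ticks fall inside the grey distribution, between -0.11 and 0.25.

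The promoters of the 2 members with the smallest p, Rictor and Inpp4b, and of Pik3ap1, the 1 further pathway gene that passed the test, are shown as the stretch of 250 bases before the annotated start (RefSeq, mouse GRCm38.p6). Pik3ap1 was added to this set after its values were seen. Capitals mark a match to any of 4 motifs, searched on both strands: the FOXO core GTAAACA, the E-box CACGTG, the AP-1 site TGANTCA and the ETS site CCGGAAG.
Rictor, chr15:6708131-6708380, plus strand: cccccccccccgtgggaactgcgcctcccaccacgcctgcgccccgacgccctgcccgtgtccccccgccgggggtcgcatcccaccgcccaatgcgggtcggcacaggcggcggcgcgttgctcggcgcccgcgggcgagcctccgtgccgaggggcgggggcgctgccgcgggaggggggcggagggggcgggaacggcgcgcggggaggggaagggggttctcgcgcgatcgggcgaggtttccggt
Inpp4b, chr8:81342312-81342561, plus strand: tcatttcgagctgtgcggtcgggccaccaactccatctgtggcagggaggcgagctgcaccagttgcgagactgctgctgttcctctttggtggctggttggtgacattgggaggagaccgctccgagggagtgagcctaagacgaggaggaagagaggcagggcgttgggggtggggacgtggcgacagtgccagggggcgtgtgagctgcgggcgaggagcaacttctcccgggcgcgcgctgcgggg
Pik3ap1, chr19:41385103-41385352, minus strand: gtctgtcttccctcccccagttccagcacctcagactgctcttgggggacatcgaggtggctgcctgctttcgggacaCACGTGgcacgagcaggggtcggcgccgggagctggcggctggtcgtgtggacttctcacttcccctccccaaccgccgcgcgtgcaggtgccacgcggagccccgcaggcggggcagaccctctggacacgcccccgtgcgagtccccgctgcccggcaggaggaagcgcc
The windows of Rictor and Inpp4b held none of the 4 motifs, and that of Pik3ap1 held an E-box that begins 172 bases before the start. All 3 windows were rich in G and C, at 81.2% in Rictor, 66% in Inpp4b and 71.2% in Pik3ap1.

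Promoters of 33 of the 36 measured members were in the RefSeq table, all except those of Deptor, Rps6kb2 and Eif4ebp1. Their median content of G and C was 61.6%, with a median of 19 CpG dinucleotides, against 56.4% and 11 over the 15613 measured genes with a promoter. The ETS site was found in 7 of the 33 (21.2%, against 9.63% of all promoters), in Akt1s1, Eif4ebp2, Mtor, Pik3ca, Prkab1, Rraga and Tsc2. The FOXO core was found in Akt1 and Mapkap1 (6.06%, against 2.72%), the E-box in Rheb and Rragc (6.06%, against 7.03%) and the AP-1 site in Pik3ca (3.03%, against 6.11%). These matches describe the letters of the windows, and their shares were not tested.

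The PI3K subunits lay close together in IIKO and WT. Pik3cd encodes p110δ, the catalytic chain that dominates in lymphocytes. It was at 8.87, 8.82, 9.08 and 9.00 on IIKO arrays 1 to 4, against 9.12, 8.91, 8.81 and 8.88 on WT arrays 1 to 4. The groups overlapped throughout, and the difference was 0.01, with a 95% confidence interval from -0.17 to 0.20 (limma adjusted p = 0.947). Pik3ca, the widely expressed catalytic chain p110α, was at 9.85, 9.88, 9.90 and 10.01 in IIKO, against 9.56, 9.57, 9.83 and 9.91 in WT. Every IIKO array lay above WT arrays 1, 2 and 3, while WT array 4 lay within the IIKO values. Its difference of 0.19 ± 0.09 (SE) did not pass (limma adjusted p = 0.29).

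Pik3cb, the catalytic chain p110β, was the most variable subunit within a group, at 7.64 ± 0.27 in IIKO and 7.64 ± 0.12 in WT (SD, n = 4 arrays each). Pik3cg, the p110γ chain that answers to G protein-coupled receptors, was at 9.27 ± 0.09 in IIKO and 9.23 ± 0.18 in WT. Its partner Pik3r5, the p101 subunit, was at 8.22 ± 0.02 in IIKO and 8.25 ± 0.12 in WT. Pik3r1, the p85α subunit that stabilises the catalytic chains and holds them in check until a receptor is engaged, was at 10.62 ± 0.07 in IIKO and 10.59 ± 0.09 in WT. The adjusted p of these 4 genes ran from 0.84 to 0.997.

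Among the brakes on PI3K and AKT, Inpp4b had the largest difference of all members. It encodes a phosphatase that removes a phosphate from PI(3,4)P2, a lipid that also activates AKT. Its level was 10.92, 10.81, 11.18 and 11.13 on IIKO arrays 1 to 4, against 10.57, 10.74, 10.76 and 10.96 on WT arrays 1 to 4. Arrays 3 and 4 of IIKO stood above all WT arrays, and IIKO arrays 1 and 2 lay below WT array 4. The difference was 0.25 ± 0.10 (SE), 1.19-fold, with an unadjusted limma p of 0.0321 and an adjusted p of 0.25. With the arrays quantile normalized once more the difference was 0.233, with an unadjusted limma p of 0.057.

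Pik3ip1, a membrane protein that inhibits the PI3K catalytic chain and is known to fall upon T cell activation, was at 8.26, 8.45, 8.18 and 8.62 in IIKO, against 8.44, 8.27, 8.56 and 8.53 in WT. The groups overlapped, and the difference of -0.07 had an interval of -0.30 to 0.15. Inpp5d encodes SHIP1, the phosphatase that turns PIP3 into PI(3,4)P2 in blood cells. It was at 10.18, 10.16, 9.94 and 10.02 in IIKO, against 10.07, 10.02, 10.15 and 10.15 in WT, also with overlap (-0.02, interval -0.18 to 0.13). Phlpp1, a phosphatase that dephosphorylates AKT, was at 9.38 ± 0.18 in IIKO and 9.20 ± 0.15 in WT (SD, n = 4 arrays each; limma adjusted p = 0.366).

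In the probe sets kept, all 4 kinases downstream of PIP3 had positive differences, and none passed. The second probe set of Akt2 had a difference of -0.0041. Pdpk1 encodes PDK1, which phosphorylates AKT and SGK in their activation loop. It was at 9.55, 9.46, 9.47 and 9.38 on IIKO arrays 1 to 4, against 9.08, 9.22, 9.46 and 9.36 on WT arrays 1 to 4. WT arrays 1, 2 and 4 lay below every IIKO array, and WT array 3 lay among them. The difference was 0.18 ± 0.08 (SE; limma adjusted p = 0.291). Akt1 was at 8.48, 8.54, 8.44 and 8.39 in IIKO, against 8.60, 8.48, 8.23 and 8.32 in WT, so the IIKO arrays lay within the WT range (0.05, interval -0.13 to 0.24).

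Akt2, the isoform best known from insulin action, was the member with more than 1 probe set. In the probe set with the higher mean it was at 9.92 ± 0.14 in IIKO and 9.79 ± 0.13 in WT (limma adjusted p = 0.452). In the other the means were 9.644 in IIKO and 9.648 in WT, a difference of -0.0041, so the probe sets differed in sign. Sgk1, a kinase related to AKT that mTOR complex 2 activates, was at 7.37, 7.46, 7.35 and 7.49 in IIKO, against 7.52, 7.35, 6.96 and 7.31 in WT. WT array 3 was the lowest and WT array 1 the highest of all arrays, and the difference of 0.13 had an interval of -0.10 to 0.37.

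Gsk3b was the 1 member whose groups did not overlap. It encodes a kinase that AKT switches off by phosphorylation. Its level was 9.54, 9.61, 9.62 and 9.56 on IIKO arrays 1 to 4, against 9.445, 9.46, 9.48 and 9.52 on WT arrays 1 to 4. The gap between the lowest IIKO array and the highest WT array was small, and the difference of 0.11 ± 0.05 (SE) did not pass (limma adjusted p = 0.299). Of the members 2.78% thus had groups apart, all higher in IIKO, while 2.83% of all genes were apart and higher and 7.69% apart and lower. After a further quantile normalization the groups of Gsk3b overlapped.

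**Figure D3:**
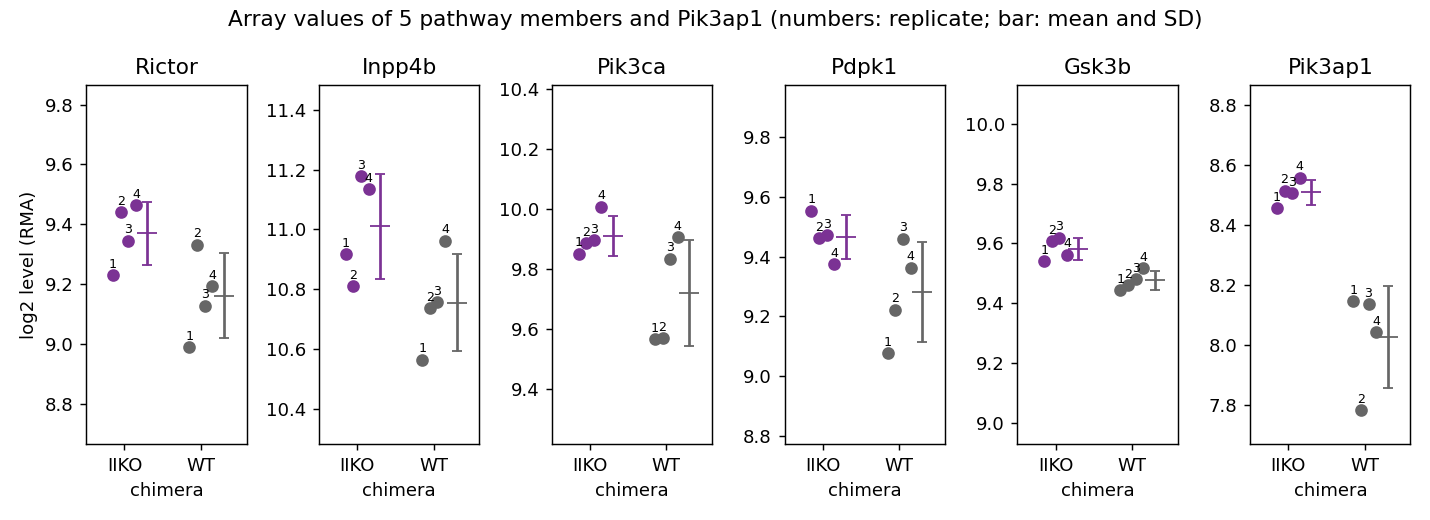
Log2 level (vertical axis, each panel spanning 1.2 log2) of Rictor, Inpp4b, Pik3ca, Pdpk1, Gsk3b and Pik3ap1 on each array of IIKO (purple) and WT (grey) chimeras, with the replicate number beside each point and the mean and SD of 4 arrays beside each group. The groups overlap for the first 4 genes and are apart for Gsk3b and Pik3ap1.

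The TSC complex and the GTPases that act on mTOR showed no difference past the test. Tsc1, which stabilises the complex, was at 8.23, 8.25, 8.23 and 8.22 in IIKO, against 8.22, 8.38, 8.19 and 8.19 in WT. All IIKO arrays lay inside the WT range, which WT array 2 widened at its top, and the difference of -0.01 had an interval of -0.14 to 0.12. Tsc2, its GTPase-activating partner, was at 7.92 ± 0.09 in IIKO and 7.92 ± 0.07 in WT (SD, n = 4 arrays each). Rheb, the GTPase that TSC2 switches off, was at 10.21 ± 0.08 in IIKO and 10.26 ± 0.09 in WT (limma adjusted p = 0.682). The amino acid sensing GTPases Rraga and Rragc had differences of 0.09 and -0.10 (adjusted p = 0.524 and 0.635).

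Of the subunits of the mTOR complexes, Rictor, the defining subunit of mTOR complex 2, had the smallest p of all members. It was at 9.23, 9.44, 9.35 and 9.46 on IIKO arrays 1 to 4, against 8.99, 9.33, 9.13 and 9.19 on WT arrays 1 to 4. IIKO arrays 2, 3 and 4 lay above every WT array, and WT array 2 lay above IIKO array 1. The difference was 0.21 ± 0.08 (SE), 1.16-fold, with an unadjusted limma p of 0.0294 and an adjusted p of 0.244. After a further quantile normalization it was 0.159, with an unadjusted limma p of 0.0818.

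Mtor, the kinase itself, was at 7.96, 7.95, 8.09 and 8.03 in IIKO, against 7.97, 7.97, 7.90 and 7.74 in WT. IIKO arrays 1 and 2 lay below WT arrays 1 and 2, while WT arrays 3 and 4 lay below every IIKO array, and the difference was 0.11 ± 0.07 (SE; limma adjusted p = 0.399). Rptor, the defining subunit of mTOR complex 1, was at 7.72, 7.83, 7.95 and 7.67 in IIKO, against 7.76, 7.60, 7.73 and 7.72 in WT. Its highest value was on IIKO array 3 and its lowest on WT array 2, and the difference of 0.09 had an interval of -0.07 to 0.25. Mlst8, the subunit common to both complexes, was at 7.62 ± 0.19 in IIKO and 7.67 ± 0.13 in WT. Mapkap1, which encodes the mTOR complex 2 subunit SIN1, was at 9.62 ± 0.11 in IIKO and 9.70 ± 0.15 in WT (SD, n = 4 arrays each). Their 95% confidence intervals, -0.28 to 0.17 for Mlst8 and -0.27 to 0.11 for Mapkap1, included 0.

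The mTOR inhibitor Deptor was dim, at 5.88 ± 0.05 in IIKO and 5.87 ± 0.0029 in WT, below the lower quartile of gene levels (6.05). Background was not examined on these arrays, so whether this probe set reports any transcript is not known. Akt1s1, which encodes PRAS40, an inhibitor of mTOR complex 1 that AKT releases, was at 7.47 ± 0.03 in IIKO and 7.54 ± 0.04 in WT (limma adjusted p = 0.52). Its groups, which overlapped in the deposited values, were apart after a further quantile normalization.

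The targets of mTOR complex 1 in translation differed little. Rps6kb2, the S6 kinase that was measured, was at 8.92 ± 0.12 in IIKO and 8.89 ± 0.08 in WT (SD, n = 4 arrays each). The repressors of cap-dependent translation Eif4ebp1 and Eif4ebp2 had differences of -0.04 and -0.09 (limma adjusted p = 0.707 and 0.5). Stress-induced inhibitors of mTOR complex 1 had differences of both signs. Ddit4, which encodes REDD1, was at 8.09, 8.01, 8.09 and 8.08 in IIKO, against 8.01, 7.90, 8.09 and 8.04 in WT, with overlap (0.06, interval -0.07 to 0.18). Sesn1 and Sesn3, sestrins that restrain the RAG GTPases, had differences of -0.11 and -0.07 (adjusted p = 0.512 and 0.712). Sesn3 was at 9.33 ± 0.02 in IIKO and 9.39 ± 0.19 in WT, the spread in WT coming from array 3 at 9.13 and array 2 at 9.58.

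LKB1 and AMPK hold mTOR complex 1 back when energy is short, and the 3 members that encode them had positive differences. Among genes of these kinases and their partners outside the members, signs were mixed. Prkaa2, Prkab2 and Cab39 had negative differences (-0.073, -0.0072 and -0.0038). Prkag1, Prkag2, Strada, Stradb and Cab39l had positive ones (0.16, 0.039, 0.035, 0.0058 and 0.12). Stk11, which encodes LKB1, was at 9.42 ± 0.12 in IIKO and 9.38 ± 0.16 in WT. Prkaa1, the catalytic AMPK subunit α1, was at 9.65 ± 0.08 in IIKO and 9.52 ± 0.14 in WT, and Prkab1, the β1 subunit, at 9.69 ± 0.13 in IIKO and 9.52 ± 0.13 in WT (SD, n = 4 arrays each). Their limma adjusted p values were 0.843, 0.403 and 0.337. WT arrays 1 and 2 were the lowest 2 arrays for Prkaa1, as they were for Pik3ca and Pdpk1, at 9.43 and 9.37.

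**Figure D4:**
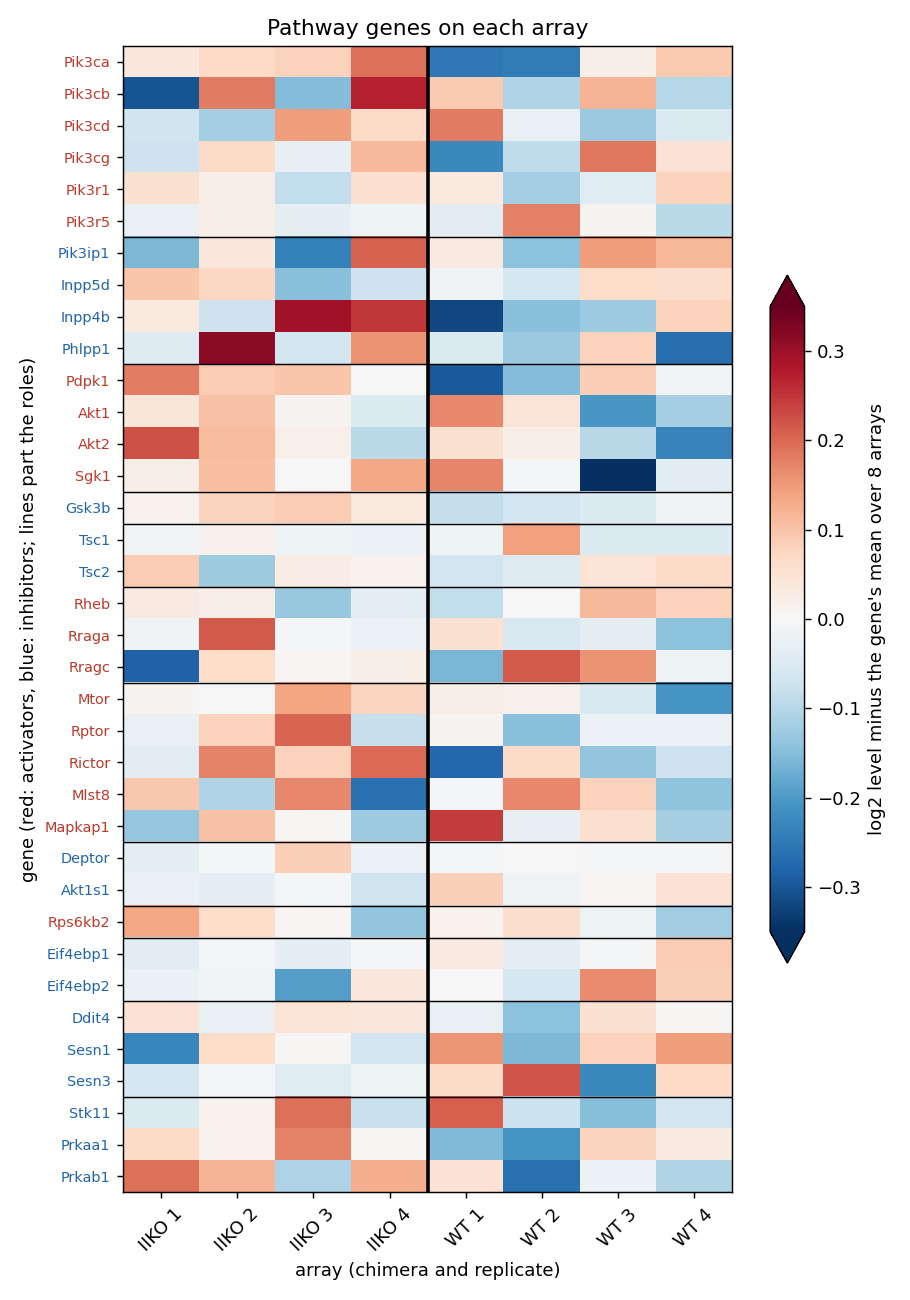
Level of the 36 measured pathway genes (rows, grouped by role; activators in red, inhibitors in blue) on each IIKO and WT array (columns), as the log2 difference from the gene's mean over the 8 arrays. The colour scale ends at 0.35 in either direction, and no role shows 4 IIKO arrays of one colour against 4 WT arrays of the other in all its genes, except the single gene Gsk3b.

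The members lay on many chromosomes. Of the 57 genes past the test, 17 lie on chromosome 7 and 18 on chromosome 17. Pdpk1, Tsc2 and Mlst8 lie on chromosome 17, and Akt1s1 and Akt2 on chromosome 7. None of these 5 had a gene past the test among the 20 nearest measured genes on either side. Pik3ca on chromosome 3 and Inpp5d on chromosome 1 had 1 such neighbour each, and the other members had 0. The share of all genes with such a neighbour was not computed, and an effect of position was not tested.

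Of 56 further genes of the pathway, 54 were measured and 1 passed the test, against 0.286% of all genes. Pik3ap1 encodes BCAP, an adaptor that binds PI3K in B cells, NK cells and macrophages. It was at 8.46, 8.52, 8.51 and 8.56 on IIKO arrays 1 to 4, against 8.15, 7.78, 8.14 and 8.04 on WT arrays 1 to 4. All IIKO arrays lay above all WT arrays, and they were closer to each other than the WT arrays were. The difference was 0.48 ± 0.08 (SE), 1.40-fold, with a limma adjusted p of 0.0477. The call was lost when any array except WT array 2 was left out (adjusted p from 0.076 to 0.135) and after a further quantile normalization (0.0777). It was also lost with eBayes run with a trend and robust variance (0.0564) and with a block for replicate numbers (0.124).

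Cells other than T cells also express Pik3ap1, so their markers are given beside it. The 7 B cell markers had a median difference of -0.04, with 1 positive and 6 negative. Cd79b, the B cell receptor chain, was at 7.49 ± 0.18 in IIKO and 7.68 ± 0.22 in WT, and Pax5, the B cell transcription factor, at 6.68 ± 0.18 in IIKO and 6.70 ± 0.11 in WT. The 10 myeloid and dendritic markers had a median difference of 0.01, with 7 positive and 3 negative. Among them Tyrobp, a signalling adaptor of myeloid and NK cells, was at 8.42, 8.70, 9.70 and 8.31 in IIKO, against 8.33, 7.77, 7.87 and 8.94 in WT. Tyrobp was highest on IIKO array 3, where Pik3ap1 was at 8.51, within 0.1 of the other IIKO arrays. On WT array 2 Pik3ap1 and Tyrobp were each at their lowest of all arrays, at 7.78 and 7.77. The mean of the B cell markers was also lowest there, at 6.053. Those of the myeloid list (6.174) and of the NK and CD8 list (6.653) were not. The 7 NK and CD8 T cell markers had a median difference of -0.10, with 2 positive and 5 negative, and ran from -0.44 for Eomes to 0.40 for Klrd1, which is named as the upper end of that range. The part of other cells in the result for Pik3ap1 was not tested.

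Besides Pik3ap1, the further pathway genes named by the smallest p all lie on chromosome 7 and did not pass. Inppl1, which encodes the phosphatase SHIP2, was at 7.90, 8.32, 8.06 and 7.95 in IIKO, against 7.70, 7.61, 7.64 and 7.68 in WT. The groups did not overlap, and the difference was 0.40 ± 0.09 (SE; limma adjusted p = 0.117). Inppl1 had 1 gene past the test among its 20 nearest measured genes on either side. Eef2k, the elongation factor 2 kinase that the S6 kinase inhibits, differed by -0.25 ± 0.08 (adjusted p = 0.204). Pik3c2a, a class II PI3K, differed by 0.19 ± 0.07 (adjusted p = 0.232), and these last 2 had 0 such neighbours. Before adjustment, 4 of the 54 were higher and 2 lower at a limma p under 0.05, against 5.27% of all genes higher and 12.0% lower. Of the 54, 40 lay above the median level, where 8.95% of genes were higher and 7.42% lower. The median difference of the 54 was 0.0075.

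Transcripts that lie downstream of the pathway did not pass the test either. Of 13 measured FOXO factors and targets, which AKT holds down by moving FOXO proteins out of the nucleus, 0 passed, and 0 were higher and 2 lower at an unadjusted p under 0.05. All 13 lay above the median level, where 8.95% of genes were higher and 7.42% lower at that threshold. Foxo1 was at 9.11, 9.30, 9.34 and 9.26 in IIKO, against 9.47, 9.48, 9.37 and 9.37 in WT. All IIKO arrays lay below all WT arrays, with a difference of -0.17 ± 0.06 (SE; limma adjusted p = 0.235). Foxo3 was at 8.26 ± 0.07 in IIKO and 8.41 ± 0.15 in WT (SD, n = 4 arrays each; adjusted p = 0.344). Bcl6, the transcriptional repressor that drives follicular helper T cell differentiation, differed by -0.22 ± 0.09 (adjusted p = 0.236) and Bcl2l11, the death gene that encodes BIM, by -0.24 ± 0.11 (adjusted p = 0.295). The list as a whole had a median difference of 0.07, with 9 positive and 4 negative, so the named genes do not stand for it.

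Of 17 measured genes whose transcripts or proteins mTOR complex 1 is known to raise, 0 passed, and 2 were higher and 1 lower at an unadjusted limma p under 0.05, beside 5.27% and 12.0% of all genes. Hif1a, the transcription factor that turns on glycolysis genes, was at 11.63, 11.75, 11.52 and 11.38 in IIKO, against 11.37, 11.31, 11.41 and 11.15 in WT. IIKO arrays 1, 2 and 3 lay above every WT array, and the difference was 0.26 ± 0.09 (SE; limma adjusted p = 0.204). Asns, the asparagine synthetase, differed by 0.18 ± 0.08 (adjusted p = 0.287), Srebf1, a regulator of lipid synthesis, by -0.11 ± 0.05 (adjusted p = 0.303), and the cystine transporter Slc7a11, at a dim mean of 4.95 in IIKO and 5.12 in WT, by -0.16 ± 0.06 (adjusted p = 0.219). The list had a median difference of 0.06, with 11 positive and 6 negative.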

How the data were processed

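Total RNA of the sorted cells was measured on 8 arrays, 4 IIKO and 4 WT, grouped by sample titles. The authors deposited 1 log2 level per probe set and array. Per the submitters' processing notes these were made with RMA in affy, whose version is not given in the sources used here. This method subtracts background and forces arrays to common quantiles, so shifts of all genes cannot be seen. Array medians were 6.96 to 7.03. The number of arrays limits the precision, and probe-level data were not used here.

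Of 34760 probe sets, 21640 had 1 symbol in the platform annotation, and 1321 with several and 11799 with none were left out. The probe set with the highest mean was kept per gene (19937 genes, no filter on dim genes). Groups were fitted with limma 3.58.1 in R 4.3.3 (lmFit, eBayes, 6 residual degrees of freedom), two-sided. Adjusted p-values follow Benjamini and Hochberg across all 19937 genes, and the threshold was 0.05. Chromosomes and promoters came from RefSeq tables (GRCm38.p6); of a gene with several promoters the first listed was used. The fit was also run on simulated arrays, drawn with independent noise and with spreads shuffled over genes. The outcome of that run is not given here.

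The members and lists were chosen with earlier results of these data known. Values on each array are given for members at an unadjusted p under 0.05, members whose groups do not overlap and 10 fixed members, to which Pik3ca and Pdpk1 were added after their values were seen. Of each further list, genes past the test and the 4 with the smallest p are named, and of marker lists up to 2. Named besides these, after their values were seen, are the LKB1 and AMPK genes outside the members. Il2ra and Klrd1 are also named besides, for the highest difference of their marker lists. Alternatives were a second quantile normalization, median centring, genes above the median level alone, eBayes with trend and robust variance, averaged probe sets per gene, a block for replicate numbers, and leaving out single arrays. Python 3.11.15 and matplotlib 3.10.9 drew the figures.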

Additional observations from a re-analysis of the deposited data

Results flagged for a closer look

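The 60 genes named by rule were examined for an array far from the other 3 of its group (Dixon's test at the 95% level). The genes named besides these were not. Of 120 groups of 4 arrays, 6 had such an array (5%), and chance gives about 1 in 20. Among the members, Rraga was at 9.12 on IIKO array 2, against 8.89 to 8.90 on the other IIKO arrays. Rragc was at 8.07 on IIKO array 1, against 8.36 to 8.41 on the others, and Ddit4 at 8.01 on IIKO array 2, against 8.08 to 8.09. Outside the members, Asns was at 7.12 on WT array 1, against 7.30 to 7.33 on the other WT arrays. The marker Cd79b was at 7.22 on IIKO array 1, against 7.56 to 7.60, and Eomes, a transcription factor of NK and CD8 T cells, at 8.11 on IIKO array 3, against 7.35 to 7.38.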

How the results depend on the processing

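The count of members past the adjusted threshold was 0 under all 6 other settings and whichever array was left out. The number of members at an unadjusted limma p under 0.05 was 2 in the deposited values, 0 after a further quantile normalization and 5 with arrays centred on their medians (Gsk3b, Inpp4b, Pdpk1, Pik3ca and Rictor). Of all genes 17.3%, 15.1% and 15.2% lay under that threshold in these settings, and 12.7% to 20.3% with an array left out. The count of members was 1 to 5 with an array left out: 1 without IIKO array 2, IIKO array 4 or WT array 1, 4 without WT array 4 and 5 without WT array 3. Members whose groups do not overlap numbered 2 with median centring (Gsk3b and Pik3ca) and 1 to 4 with an array left out. They were 2 without IIKO array 1 or 4, 3 without IIKO array 3 or WT array 1, 3 or 4, and 4 without WT array 2. Over all genes, 57 passed, and 32 to 50 did with an array left out, the fewest without IIKO array 2 or WT array 1 (33 without WT array 3, 35 without IIKO array 3, 36 without IIKO array 1). The further genes past the test were 1, Pik3ap1, and 0 after the further quantile normalization or with the trend and robust variance, and 0 to 1 with an array left out.

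Deviations of same-numbered arrays from their group means had correlations of 0.045, -0.015, -0.068 and 0.22. These were not set against the other pairs of arrays, so whether the numbers pair the arrays is not known. With the replicate block, 31 genes passed, 0 members, 0 further genes (Pik3ap1 adjusted p = 0.124), and 4 members had an unadjusted p under 0.05.

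The sign of the difference held for 28 of 36 members under the 6 settings and for 23 of 36 with arrays left out. The replicate block, genes above the median level alone, and trend with robust variance leave a difference as it is. Averaged probe sets could change it only for Akt2 among the members. For the other members, only the further quantile normalization and median centring could therefore turn the sign. After the further quantile normalization it turned for Pik3cd (-0.041), Pik3cg (-0.0073), Pik3r1 (-0.0024), Rps6kb2 (-0.011), Stk11 (-0.0061), Pax5 (0.013) and Prf1 (-0.019). With median centring it turned for Pik3cb (0.017), Tsc1 (0.0045), Tsc2 (0.018) and Pax5 (0.00045). With arrays left out the differences spanned 0 for Akt1 (-0.0056 to 0.118), Deptor (-0.015 to 0.024), Inpp5d (-0.060 to 0.020), Mlst8 (-0.116 to 0.026), Pik3cb (-0.092 to 0.099), Pik3cd (-0.034 to 0.076), Pik3cg (-0.029 to 0.107), Pik3r1 (-0.012 to 0.056), Pik3r5 (-0.063 to 0.027), Rps6kb2 (-0.0056 to 0.085), Stk11 (-0.019 to 0.116), Tsc1 (-0.033 to 0.031) and Tsc2 (-0.030 to 0.041). They also did for the markers Cd8b1 (-0.268 to 0.00020), Pax5 (-0.070 to 0.068) and Prf1 (-0.137 to 0.086). The cause of these changes was not tested.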
